A study of Mus musculus with 2 samples.

Results

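The genes described here are 10 transcription factors that direct the first lineages outside the pluripotent epiblast: Gata2, Gata3, Gata4, Gata6, Sox17, Sox7, Foxa2, Cdx2, Eomes and Tfap2c. They were chosen by name among 21951 protein-coding genes of the GENCODE vM21 annotation. The measurement was the location of SRCAP, the catalytic subunit of a remodeling complex that exchanges histone H2A for its variant H2A.Z, in SYAT mouse embryonic stem cells (mESCs). SYAT cells are a CGR8 line in which YPet, a yellow fluorescent protein, and an auxin-inducible degron were fused to both Srcap alleles and the auxin receptor OsTir1 was stably expressed. Both groups share these alleles and consist of 1 library each, made with an antibody to GFP, which binds the YPet tag, or with an antibody to SRCAP itself. The library labels call both CUT&RUN, an assay in which a nuclease tethered by the antibody cuts out the DNA near the bound protein, but among the study's genomic mapping methods the GFP antibody is named for the related CUT&Tag assay and the SRCAP antibody for CUT&RUN. Per the labels SYAT cells were routinely kept in 200 nM auxinole, the control condition, which prevents basal degradation of SRCAP, although the study's methods give that figure in µM. No label states a treatment for either library by itself, the sources used here name no control library for these lists, and no unedited line was analysed here.

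Each list held genomic intervals (peaks), 28718 for the GFP antibody and 28167 for the SRCAP antibody, each with a score whose meaning is not stated. Without replicates no difference between the antibodies could be tested, and percentages carry 95% Wilson intervals, which cover counting error only. The lists hold no read counts, so depth is unknown and a locus without a peak is a locus where none was listed, not one shown to be free of SRCAP. A locus was taken as the gene, its promoter windows (from 1000 bp upstream to 500 bp downstream of any annotated transcription start site, TSS) and 50 kb on either side, and the midpoint decided where a peak belonged. By this rule 16 GFP peaks and 21 SRCAP peaks fell at the 10 loci. Peak lists do not measure expression, so the labelled cell type could not be checked against its markers.

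The inner cell mass of the blastocyst gives rise to the epiblast, from which mESCs are derived, and to primitive endoderm, in which GATA6, GATA4, SOX17 and SOX7 act. The outer cells become trophoblast, whose program involves CDX2, GATA3, EOMES and TFAP2C, with GATA2 acting later in trophoblast giant cells. FOXA2 and SOX17 act again in definitive endoderm at gastrulation, as does EOMES. In mESCs these genes are mostly silent or low, and many of their promoters are CpG-rich and carry both activating and repressive histone marks (bivalent promoters), although TFAP2C is also made in pluripotent and germ line cells.

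The intervals found with both antibodies, and the lower-scoring promoter peak of Tfap2c (score 21), are printed first because the description below refers to them. They are the overlap of a GFP peak with a SRCAP peak, or its central 300 bp where the overlap was longer, read from GRCm38 on the plus strand. Stretches that touch an annotated exon are left out, which removes the overlaps at Fdft1, Neil2 and Pdx1. It also removes the higher-scoring promoter peak of Tfap2c (chr2:172550699-172550913, score 54). Capitals mark an exact GATA word (AGATAA or TGATAA), SOX word (ACAATG or ACAAAG) or KLF word (GGGTGTGG) on either strand.
Gata3 intron (chr2:9879606-9879764): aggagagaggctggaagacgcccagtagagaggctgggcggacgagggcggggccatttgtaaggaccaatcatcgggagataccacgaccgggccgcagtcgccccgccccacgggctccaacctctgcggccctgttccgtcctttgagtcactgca
Gata4 intron (chr14:63256109-63256362): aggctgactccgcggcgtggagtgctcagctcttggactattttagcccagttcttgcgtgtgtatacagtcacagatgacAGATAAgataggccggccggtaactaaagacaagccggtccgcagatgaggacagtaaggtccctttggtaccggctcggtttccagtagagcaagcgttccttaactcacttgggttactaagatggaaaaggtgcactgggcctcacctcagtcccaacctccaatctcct
Foxa2 upstream (chr2:148053204-148053496): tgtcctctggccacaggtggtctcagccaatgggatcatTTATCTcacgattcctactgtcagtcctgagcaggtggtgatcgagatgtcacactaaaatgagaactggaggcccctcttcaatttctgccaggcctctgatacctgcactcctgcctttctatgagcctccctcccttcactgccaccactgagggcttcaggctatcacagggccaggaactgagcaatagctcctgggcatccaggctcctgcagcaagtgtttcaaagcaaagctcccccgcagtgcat
Cdx2 near downstream (chr5:147299265-147299520): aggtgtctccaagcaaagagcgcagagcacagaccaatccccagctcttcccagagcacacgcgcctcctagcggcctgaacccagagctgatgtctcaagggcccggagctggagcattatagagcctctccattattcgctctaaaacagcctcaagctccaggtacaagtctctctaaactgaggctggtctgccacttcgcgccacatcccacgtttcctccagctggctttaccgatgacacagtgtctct
Cdx2 far downstream (chr5:147294233-147294524): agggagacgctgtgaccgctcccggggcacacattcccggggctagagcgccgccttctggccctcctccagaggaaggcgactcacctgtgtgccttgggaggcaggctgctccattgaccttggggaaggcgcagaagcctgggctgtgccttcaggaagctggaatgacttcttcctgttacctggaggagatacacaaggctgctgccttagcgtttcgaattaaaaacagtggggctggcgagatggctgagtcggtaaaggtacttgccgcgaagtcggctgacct
Tfap2c upstream (chr2:172516672-172516971): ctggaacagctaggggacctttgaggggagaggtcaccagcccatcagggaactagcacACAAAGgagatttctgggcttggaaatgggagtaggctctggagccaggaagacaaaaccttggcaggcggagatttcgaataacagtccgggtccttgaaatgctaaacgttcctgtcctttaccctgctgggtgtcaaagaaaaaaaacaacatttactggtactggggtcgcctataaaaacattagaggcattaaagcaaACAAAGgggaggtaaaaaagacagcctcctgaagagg
Tfap2c downstream (chr2:172577209-172577508): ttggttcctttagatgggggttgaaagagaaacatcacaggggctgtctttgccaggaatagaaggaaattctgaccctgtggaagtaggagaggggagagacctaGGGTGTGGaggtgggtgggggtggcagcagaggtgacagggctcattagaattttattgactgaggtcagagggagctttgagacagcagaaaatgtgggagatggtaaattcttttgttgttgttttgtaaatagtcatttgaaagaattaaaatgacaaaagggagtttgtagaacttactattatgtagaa
Tfap2c promoter, SRCAP peak only (chr2:172549290-172549449): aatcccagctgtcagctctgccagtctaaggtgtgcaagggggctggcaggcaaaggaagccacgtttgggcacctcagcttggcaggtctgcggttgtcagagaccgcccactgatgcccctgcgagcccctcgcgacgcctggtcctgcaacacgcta
The Gata3 stretch was rich in CpG, with 13 CpG sites in 159 bp and a ratio of observed to expected CpG of 0.77. The Gata4 stretch held 11 sites in 254 bp (ratio 0.62) and the Cdx2 stretches held 10 and 15 (ratios 0.53 and 0.58). The Foxa2 stretch held 3 CpG sites (0.14), the Tfap2c upstream stretch 5 (0.29), and the Tfap2c downstream stretch 0. The intervals shared by both antibodies at these loci thus included both CpG-rich and CpG-poor DNA.

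Few of the regulators had a peak at their own promoter. A promoter peak was listed for 1 of 10 genes (Gata3) in the GFP list (10.0%, 1.79 to 40.4) and for 2 of 10 (Gata3 and Tfap2c) with the SRCAP antibody (20%, 5.67 to 51.0). Over all protein-coding genes the share was 35.0% (GFP) and 35.6% (SRCAP), which lies inside both intervals. Gene bodies, counted from the start to the end of the gene, held a peak for Gata3 and Gata4 with the GFP antibody (20%, against 35.9% of all protein-coding genes). With the SRCAP antibody they held one for Gata3, Gata4, Cdx2 and Tfap2c (40%, against 36.2%).

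Within 50 kb the 10 genes separated into a group with peaks and a group without, and with all listed peaks counted this division was the same for both antibodies. Gata3, Gata4, Foxa2, Cdx2, Eomes and Tfap2c had at least 1 peak in each list (60.0%, 31.3 to 83.2), and Gata2, Gata6, Sox17 and Sox7 had none in either. When peaks scoring under their list's median were left out, 3 regulators had a GFP peak (Gata4, Cdx2 and Tfap2c) and 5 had a SRCAP peak (those and also Gata3 and Foxa2). The peaks that remained at the Gata4 locus lay only at the promoters of Fdft1 and Neil2, and that of Foxa2 in the promoter window of Gm27420. With a flank of 10 kb, or when a peak counted only for its nearest protein-coding gene, the numbers were 6 (GFP) and 5 (SRCAP), since Eomes then had no SRCAP peak. With all listed peaks and the flank of 50 kb, 79.7% (GFP) and 80.5% (SRCAP) of all protein-coding genes had a locus peak. Over all protein-coding genes 75.1% had a locus peak in both lists and 15.0% (3287 genes) in neither, so the lists mostly gave the same division there too. Of the 10 regulators 6 had one in both lists and 4 in neither. The counts under the other settings have no such background beside them. The median regulator had 1.0 GFP peak and 1.5 SRCAP peaks at its locus, where the median protein-coding gene had 3.0 with each antibody. Per megabase of locus this was 13.4 and 17.6 peaks, against 21.6 and 20.6 over all protein-coding genes.

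**Figure D1:**
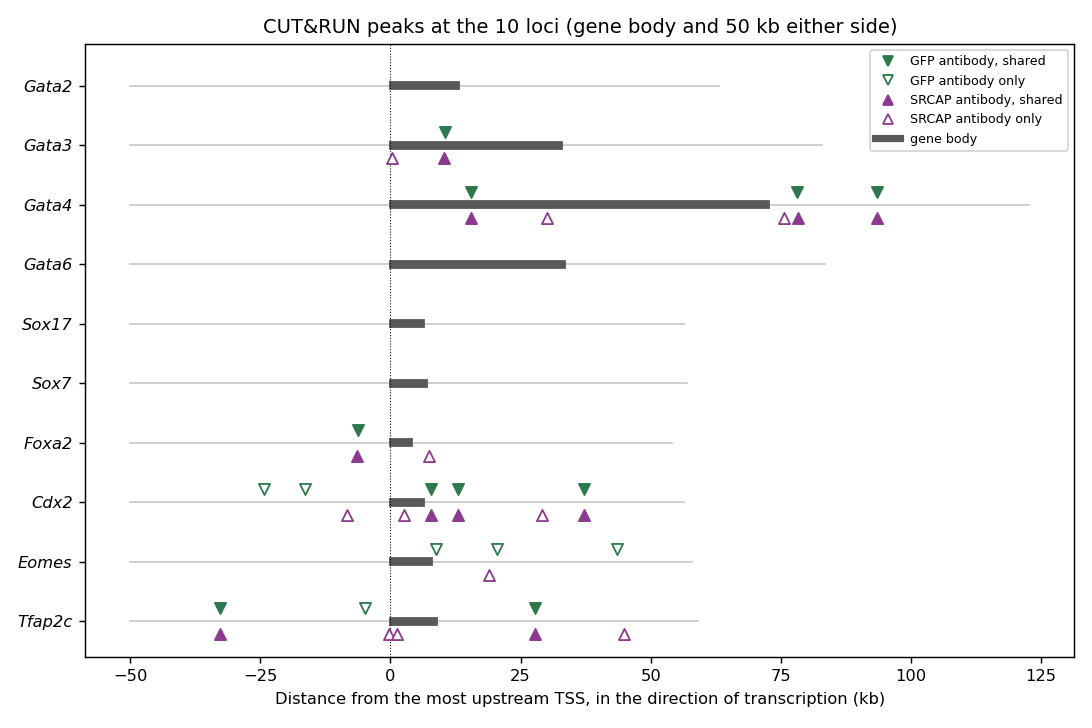
Peaks at the 10 loci by distance from the most upstream TSS in the direction of transcription (kb), with GFP peaks above and SRCAP peaks below each line, filled where a peak overlaps a peak of the other list, and the gene body as a dark bar. Gata2, Gata6, Sox17 and Sox7 carry no peak, and filled symbols are seen at Gata3, Gata4, Foxa2, Cdx2 and Tfap2c but not at Eomes.

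Neighboring genes bear on how many peaks a locus can hold. The median regulator had 1.0 other protein-coding gene whose most upstream TSS lay in its locus, against 2.0 for all protein-coding genes, and Gata6, Sox17, Foxa2 and Tfap2c had none. Among all protein-coding genes with no such neighbor, 64.0% (GFP) and 65.6% (SRCAP) had a locus peak, and 2 of those 4 regulators (Foxa2 and Tfap2c) did. With 1 neighbor the shares were 78.6% and 79.7%, and 1 of 2 regulators (Eomes, not Gata2) had a peak. With 2 or 3 neighbors they were 83.0% and 83.7%, and 3 of 4 regulators (Gata3, Gata4 and Cdx2, not Sox7) had one. The part of gene density in the count of empty loci was not tested further.

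The distance to the nearest peak is no separate evidence for this division. A gene without a peak within 50 kb necessarily has its nearest peak farther away than that. With the GFP antibody the midpoint of the nearest peak lay 0.9 kb from a TSS of Gata3, 4.8 kb from Tfap2c, 6.3 kb from Foxa2, 7.9 kb from Cdx2, 8.1 kb from Eomes and 11.0 kb from Gata4. It lay 69.8 kb from Gata2, 83.5 kb from Sox7, 166.2 kb from Gata6 and 191.7 kb from Sox17. With the SRCAP antibody the nearest midpoint was 24 bp from a TSS of Tfap2c and 0.3 kb from Gata3, followed by Cdx2 (2.6 kb), Gata4 (3.6 kb), Foxa2 (6.0 kb) and Eomes (18.3 kb). For the genes without a locus peak it was 70.0 kb (Gata2), 74.3 kb (Sox17), 83.5 kb (Sox7) and 185.7 kb (Gata6). Among the 6 genes with a locus peak the order differed between the lists. The medians over the 10 genes were 9.53 kb and 12.1 kb, and those over all protein-coding genes 6.50 kb and 6.38 kb.

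**Figure D2:**
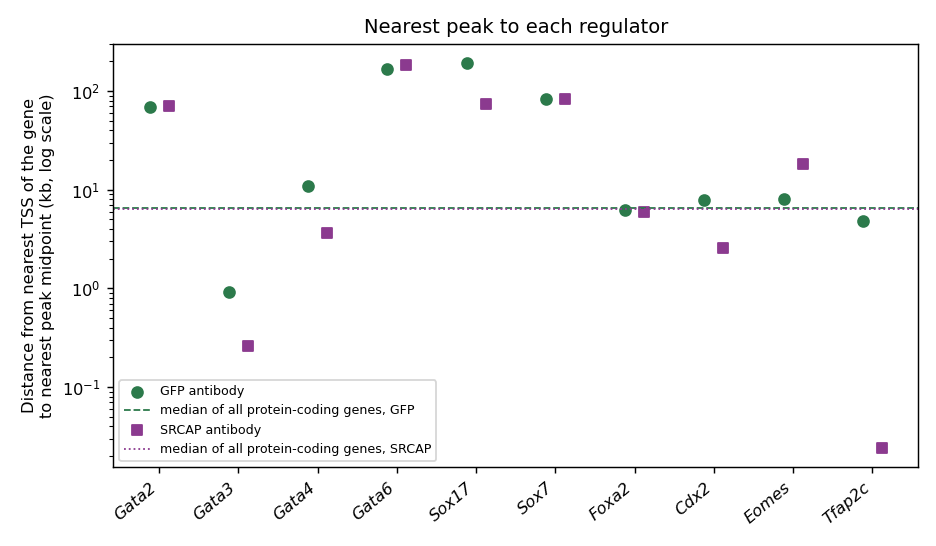
Distance from the nearest TSS of each gene to the nearest peak midpoint (kb, log scale) for the GFP antibody (circles) and the SRCAP antibody (squares), with dashed and dotted lines at the medians of all protein-coding genes, 6.50 and 6.38 kb. Gata2, Gata6, Sox17 and Sox7 lie at 69.8 kb or more in both lists, and the other 6 at 18.3 kb or less.

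GATA3 is a zinc finger factor of trophoblast and T cells, and its gene (chr2:9857078-9890034, minus strand) had 1 GFP peak and 2 SRCAP peaks, all inside the gene. The GFP peak (chr2:9879143-9879877, score 39) overlapped a SRCAP peak (chr2:9879606-9879764, score 57) over 159 bp in an intron, 10.5 kb downstream of the most upstream TSS. This is the Gata3 intron stretch printed above. Relative to an internal TSS, whose promoter window had a CpG ratio of 0.686, the GFP midpoint lay at -910 bp and so counted at the promoter, whereas the SRCAP midpoint lay at -1085 bp, just outside the window. The other SRCAP peak (chr2:9889558-9889923, score 40) was centered 261 bp downstream of a TSS at the start of the gene and overlapped no GFP peak. That window is shared with the divergent transcript 9230102O04Rik, so the peak cannot be assigned to Gata3 alone. Gata3 was thus listed with a promoter peak by both antibodies, but at different starts.

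GATA4 drives endoderm and heart development, and its gene (chr14:63198922-63271692, minus strand) had no promoter peak, with 3 GFP and 5 SRCAP peaks at the locus. An intronic peak was found with both antibodies (scores 44 and 40, midpoints 33 bp apart), 15.5 kb downstream of the most upstream TSS and 11.0 kb upstream of the nearest internal TSS. The stretch printed for it holds 1 GATA word, the sequence that GATA factors recognize. The highest-scoring peaks of the locus (121 in the GFP list, 87 in the SRCAP list) were not in Gata4 but at the promoter of Fdft1, which encodes squalene synthase. Peaks at the promoter of Neil2, a DNA repair glycosylase, were also found with both antibodies (scores 68 and 53). The remaining SRCAP peaks lay in Gata4 itself, 3.6 kb from a TSS (score 33), and between genes (score 34), and neither had a GFP partner.

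FOXA2 is a forkhead factor that opens chromatin in endoderm, and its gene (chr2:148042877-148046969, minus strand) had 1 GFP and 2 SRCAP peaks. Both antibodies gave a peak 6.3 kb upstream (GFP midpoint, score 44 with GFP and 87 with SRCAP), which lay within the promoter window of the noncoding gene Gm27420. The stretch printed for it holds 1 GATA word and few CpG sites. A further SRCAP peak lay 6.0 kb downstream of the nearest Foxa2 TSS (score 34) without a GFP partner, and the promoter and body of Foxa2 held none.

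CDX2 is the caudal-type homeodomain factor required for trophectoderm and later for the gut, and its gene (chr5:147300805-147307270, minus strand) had the most peaks of the 10, 5 (GFP) and 6 (SRCAP). Of all protein-coding genes 71.5% and 82.9% had fewer. Peaks found with both antibodies lay 7.9 kb (scores 49 and 51) and 13 kb (scores 60 and 63) downstream of the TSS, beyond the end of the gene, with midpoints 19 and 80 bp apart. Both stretches printed for Cdx2 come from there. A peak of score 20 (GFP) and 121 (SRCAP) lay 37.1 kb downstream at the promoter of Pdx1, the gene of a pancreatic homeodomain factor, and was the highest-scoring SRCAP peak of the locus. Its GFP score stood at percentile 3.5 of the GFP list and its SRCAP score at percentile 90.8 of the SRCAP list, with ties placed at their middle rank. Without a partner were GFP peaks at -16.4 kb (score 17) and -24.3 kb (score 34) from the TSS, where negative values are upstream, and SRCAP peaks at -8.3 kb (score 42), 2.6 kb in an intron (score 34) and 29.1 kb (score 23). No peak counted at the promoter in either list.

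EOMES, a T-box factor of trophoblast stem cells and of mesendoderm, was the only gene with peaks in both lists and none in common. Its locus (gene at chr9:118478212-118486132, plus strand) had 3 GFP peaks, with scores of 36 to 38 at 8.1, 19.8 and 42.9 kb from the nearest TSS, and 1 SRCAP peak of score 21 at 18.3 kb. All scored below the median of their list, 47 in each. The peaks nearest to the edge of the locus lay just beyond it, 51.8 kb (GFP) and 51.6 kb (SRCAP) from the gene, in an intron of Golga4, and these overlapped each other (scores 57 and 42).

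TFAP2C, an AP-2 factor of trophoblast and the germ line, had the highest scores of the 10 loci (gene at chr2:172549593-172558622, plus strand, with 3 GFP and 5 SRCAP peaks). A peak 32.7 kb upstream scored 144 (GFP) and 209 (SRCAP), at percentiles 94.5 and 97.8 of the lists. A peak 27.7 kb downstream of the most upstream TSS scored 91 and 96. Both lay between genes, with Tfap2c as the nearest protein-coding gene, and the upstream stretch printed above holds 2 SOX words. At the promoter the SRCAP antibody alone gave peaks, 223 bp upstream of the most upstream TSS (chr2:172549290-172549449, score 21) and 24 bp downstream of a second start region (chr2:172550699-172550913, score 54). The nearest GFP peak lay 4.8 kb upstream of the gene (score 31), and a SRCAP peak without a partner lay 42.3 kb downstream of the nearest TSS (score 18). Just outside the locus were a GFP peak 50.8 kb away (score 54) and a SRCAP peak 55.4 kb away (score 99).

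The 4 genes without a peak differed in how far the empty region reached. GATA2, a factor of blood and trophoblast, had its nearest peak 69.8 kb (GFP, score 47) and 70.0 kb (SRCAP, score 34) away, between genes, and these peaks overlapped each other. SOX7, a factor of primitive endoderm and endothelium, had its nearest peaks 83.5 kb away in both lists, overlapping at the promoter of Pinx1 (scores 40 and 47). SOX17, which marks primitive and definitive endoderm, had its nearest SRCAP peak at 74.3 kb (score 23) and its nearest GFP peak at 191.7 kb (score 22), neither with a partner. GATA6, which primitive endoderm requires first, had the nearest GFP peak at 166.2 kb (score 84) and the nearest SRCAP peak at 185.7 kb (score 47). Of all protein-coding genes 90.8% had a nearer GFP peak and 92.4% a nearer SRCAP peak than Gata6. With a flank of 100 kb the number of genes with a peak was 8 (GFP) and 9 (SRCAP), Gata2 and Sox7 entering both lists and Sox17 the SRCAP list.

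The share of peaks at these loci that the other antibody also gave had a counting interval that held the share of the rest of the list. A SRCAP peak overlapped 10 of the 16 GFP peaks (62.5%, 38.6 to 81.5), against 56.2% of the other GFP peaks. A GFP peak overlapped 10 of the 21 SRCAP peaks (47.6%, 28.3 to 67.6), against 57.7% of the other SRCAP peaks. The overlapping pairs lay at Cdx2 and Gata4 (3 each), Tfap2c (2), Gata3 and Foxa2 (1 each). The peaks of a pair scored 20 to 144 in the GFP list (median 54.5) and 40 to 209 in the SRCAP list (median 75.0), while peaks without a partner scored 17 to 38 (median 35.0) and 18 to 54 (median 34). In the whole lists the medians were 61.0 and 60.0 for peaks with a partner and 35.0 and 34 for peaks without, so the same order held there. Another gene's promoter held 4 of the 16 GFP peaks (25%, 10.2 to 49.5) and 5 of the 21 SRCAP peaks (23.8%, 10.6 to 45.1), at Fdft1, Neil2, Gm27420 and Pdx1 in both lists and at 9230102O04Rik with the SRCAP antibody.

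**Figure D3:**
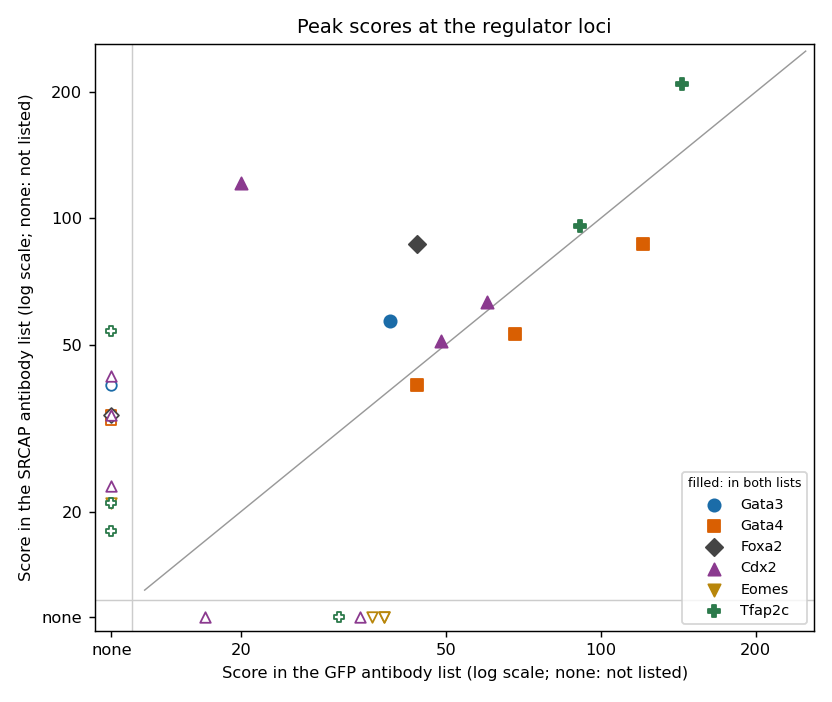
Scores of the peaks at the 6 loci with peaks in the GFP list (horizontal) and the SRCAP list (vertical), on log axes, where filled symbols are the 10 overlapping pairs and open symbols along the axes, some of them superimposed, are peaks of 1 list only; the line marks equal scores. Peaks without a partner reach 38 and 54, and the pair at Tfap2c reaches 144 and 209.

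Promoter sequence was compared because SRCAP peaks were unevenly spread over promoters of different CpG content. Over all protein-coding genes with a sequence, ordered by the CpG ratio of the promoter window at the most upstream TSS and cut into 4 equal bins, the share with a promoter peak was 6.4%, 29.0%, 53.0% and 51.6% with the GFP antibody from the lowest to the highest bin. With the SRCAP antibody it was 6.69%, 29.9%, 53.4% and 52.6%. The regulators had a median ratio of 0.592, against 0.482 for all protein-coding genes. Gata4 (0.173) fell in the first bin, Gata3 (0.439) in the second, Foxa2 (0.516), Gata6 (0.540), Sox17 (0.558), Eomes (0.626), Cdx2 (0.647), Tfap2c (0.654) and Gata2 (0.667) in the third, and Sox7 (0.749) in the fourth.

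Above the median CpG ratio, 0 of 8 regulators had a GFP promoter peak, which allows a share of up to 37.5%, against 52.3% of the protein-coding genes there. With the SRCAP antibody it was 1 of 8 (Tfap2c, 12.5%, 2.24 to 47.1), against 53.0%. A peak anywhere in the locus was listed for 4 of these 8 genes (50.0%, 21.5 to 78.5) in each list, namely Foxa2, Eomes, Cdx2 and Tfap2c, against 92.9% (GFP) and 93.2% (SRCAP) of the protein-coding genes. This background does not account for gene density. Sox17, Foxa2, Tfap2c and Gata6, all among the 8, had no protein-coding neighbor in the locus. Of all protein-coding genes without one, 64.0% (GFP) and 65.6% (SRCAP) had a locus peak. CpG ratio and neighbors were not considered together. When each gene was instead placed by the TSS with its highest ratio, all 10 regulators lay above the median, Gata4 and Gata3 included, since both have an internal CpG-rich start (ratios 0.642 and 0.686). The promoter counts were then 1 of 10 against 52.3% and 2 of 10 against 53.2%, and the locus counts 6 of 10 against 93.0% and 93.3%. In these comparisons by CpG ratio the background lay above the upper end of the counting interval. They reuse the same genes, and locus peaks include promoter peaks, so they are not separate results. Without the split by CpG ratio the shares of all protein-coding genes lay inside the intervals. The genes were chosen with results of these data known and share their family and class, so no test was made.

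**Figure D4:**
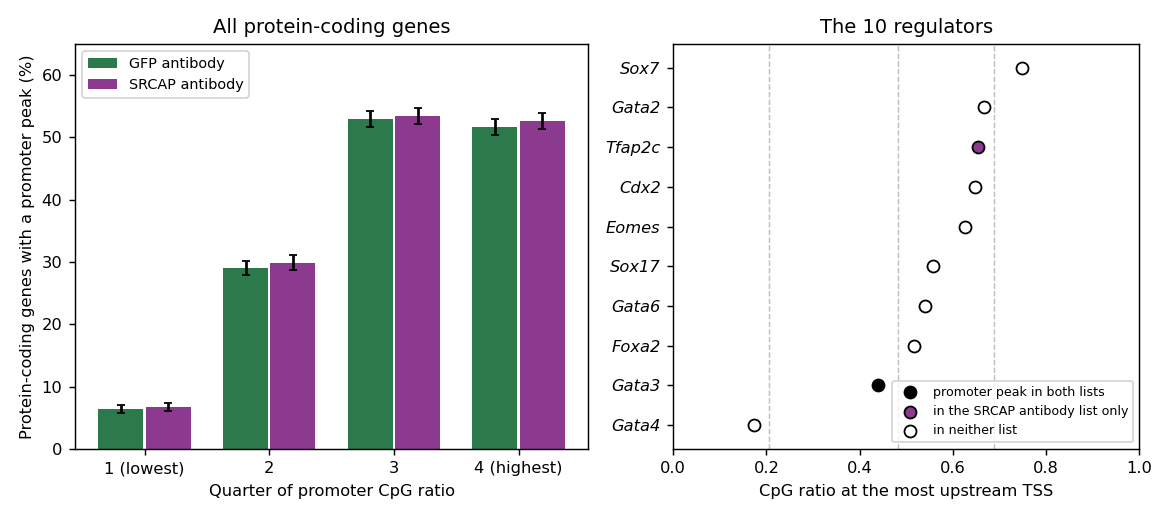
Left, share of all protein-coding genes with a promoter peak (%) by bin of promoter CpG ratio for both antibodies, with 95% Wilson intervals as error bars; right, the CpG ratio of each regulator at its most upstream TSS, with dashed lines at the bin limits and the fill showing which list holds a promoter peak. The shares exceed 50% in the bins that hold 8 of the 10 regulators, of which Tfap2c alone has a promoter peak, in the SRCAP list.

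The median peak at the regulator loci was richer in CpG than the median peak of its list, while single peaks lay on both sides. The 4 GFP and 5 SRCAP peaks at promoters of other genes are included. In windows of 500 bp at the midpoint the median CpG ratio at these loci was 0.472 (GFP) and 0.552 (SRCAP), against 0.303 and 0.310 over all peaks. Median GC content was 53.7% and 54.6%, against 49.8% and 51.0%. Repeats covered over 50% of the window for 1 of 16 GFP peaks and 0 of 21 SRCAP peaks, against 11.1% of all peaks in each list. The ratios of single peaks ran from 0.042 (GFP peak downstream of Tfap2c) to 0.912 (GFP peak at Fdft1).

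GATA and SOX words were present at these peaks about as often as at all peaks. In 200 bp at the midpoint a GATA word was present in 2 of 16 GFP peaks and 2 of 21 SRCAP peaks, against 13.4% and 12.1% of all peaks of the lists. A SOX word was present in 4 of 16 and 4 of 21, against 28.3% and 26.6%. The words searched for FOXA (TGTTTAC), CDX (TTTATGG) and T-box factors (AGGTGTGA) were in none of them and in 3.06% or less of all peaks. The AP-2 word (GCCNNNGGC) was in 3 GFP peaks and 1 SRCAP peak, against 7.88% and 8.96%. The KLF word was in 1 GFP peak and 2 SRCAP peaks, against 2.37% and 2.41%. Words for CTCF (AGGGGGCGC) and NRF1 (GCGCATGC) were each in 1 GFP peak, and that for ESRRB (TCAAGGTCA) in 1 SRCAP peak. These 3 words were in 1.48% or less of all peaks. Words for OCT4 (ATTTGCAT) and NFY (CCAATCAG) were in no peak at these loci and in 2.47% or less of all peaks. These are exact letters on both strands, so a window without a word may still hold a related sequence.

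The promoters of paralogs and other regulators of the same lineages were listed at the share of all protein-coding genes. Of 56 such genes, named from the gene families and from endoderm and trophoblast programs, 20 had a promoter peak with each antibody (35.7%, 24.5 to 48.8, against 35.0% and 35.6% of all protein-coding genes), 13 of them with both. That share lay inside the counting intervals of the 10 regulators, and the difference was not tested. These 13 were the factor genes Foxa3, Tbx3, Tfap2a, Ets2, Klf5 and Arid3a, the laminin genes Lama1 and Lamb1, the matrix protein gene Sparc, the receptor genes Cxcr4 and Fgfr2, the endocytic adaptor gene Dab2, and Afp, which encodes alpha-fetoprotein. Tbx3, which promotes endoderm from mESCs, scored 95 and 116 at its promoter. Tfap2a, the paralog of Tfap2c, scored 72 and 94, while Tfap2b had a promoter peak with the SRCAP antibody only (score 28), as Tfap2c did. Among the GATA paralogs Gata5 had a SRCAP promoter peak (score 40) and Gata1 none. By family, the GFP and SRCAP lists held promoter peaks of 0 and 1 of 2 GATA and 0 and 1 of 5 SOX paralogs. For FOXA it was 1 and 1 of 2, and for CDX 1 and 0 of 2. For T-box genes it was 2 and 1 of 5, and for TFAP2 1 and 2 of 4. The endoderm genes stood at 9 of 20 in each list (45.0%), and the trophoblast genes at 6 and 5 of 16 (37.5% and 31.25%). The median promoter CpG ratio of the 56 was 0.571, near the 0.592 of the 10 regulators and above the 0.482 of all protein-coding genes. Their promoter share was not computed above the median ratio. Whether the low count of promoter peaks there is particular to the 10 was thus not tested. A locus peak was listed for 49 (GFP) and 48 (SRCAP) of the 56 (87.5% and 85.7%, where all protein-coding genes gave 79.7% and 80.5%). In neither list had 4 of them a peak (7.14%, against 15.0%), the pattern of Gata2, Gata6, Sox17 and Sox7.

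The pattern of Gata4, Foxa2, Cdx2 and Eomes, with locus peaks and no promoter peak in both lists, was shared by 23 of the 56 related genes and 33.5% of all protein-coding genes. The pattern of Tfap2c was shared by 5 related genes and 7.51% of all, and that of Gata3 by the 13 named above and 27.0% of all. Of 6 pluripotency genes (Pou5f1, Nanog, Sox2, Klf4, Zfp42 and Esrrb, with Sox2 also among the 56) all 6 had locus peaks with each antibody. The background was again 79.7% and 80.5%. Their median was 5.0 (GFP) and 3.5 (SRCAP) peaks, where all protein-coding genes gave 3.0 with each antibody. A promoter peak was listed for 1, Zfp42, in each list (16.7%, 3.005 to 56.35), against 35.0% and 35.6% of all protein-coding genes.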

How the data were processed

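CUT&RUN libraries of SYAT cells were assigned to an antibody from their titles, with 100000 cells per library and paired reads of 75 nt per the labels. For each library the authors deposited a peak list with a score per peak. What the score means was not stated, and it served here only to describe and filter peaks. The minimum score was 13 in both lists. The submitters' processing notes name STAR, Picard, MACS2 and the builds mm10 and dm6 without roles or versions. For ChIP-seq and CUT&Tag the study's methods describe unique alignment with STAR, removal of duplicates and of mitochondrial reads, scaling to Drosophila spike-in reads, MACS2 calling of paired fragments and exclusion of blacklisted regions, and its reporting summary names an input as control. Whether these steps, which decide what is listed, were applied to either list is not stated. No read counts accompany the peaks, so the depth and the precision of a score are unknown, and with 1 library per antibody no test was made.

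Peaks were placed by midpoint on GENCODE vM21 genes (GRCm38) with Python 3.11.15, numpy 2.4.6 and pandas 2.3.3, and were called shared at an overlap of at least 1 bp, checked with bedtools 2.31.1. Background was all 21951 protein-coding genes, with those of the mitochondrial chromosome not excluded. Wilson intervals used scipy 1.17.1, and a count of 0 was given the limit of 3 counts. The CpG ratio was computed in the promoter window of the most upstream TSS, and was missing for 13 genes. Exact motif words were searched in windows of 200 bp. Alternatives changed the score minimum, the promoter and locus windows, the TSS set, the overlap rule and the motif window. The placement of each gene by its most CpG-rich TSS was added after seeing the data. Plots were drawn with matplotlib 3.10.9, and the window and overlap steps were tested on simulated data. The named peaks were every promoter peak, every shared peak in a gene body and the highest-scoring peak of each list at each locus, to which the other peaks of the 10 loci were added after their values were seen. Related genes were named where a promoter peak was in both lists, and the values of Tfap2b, Gata5 and Gata1 were added after they were seen. The genes, lists and comparisons were chosen with earlier results of these data known.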

Additional observations from a re-analysis of the deposited data

How the results depend on the processing

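Of 58 values recomputed under another setting, 45 moved by less than a factor of 1.5 or stayed within their counting interval, and 13 moved further. Whether a value changed side against its background was not checked. Restricting each list to peaks at or above its median score left 0 regulators with a GFP promoter peak and 1 with a SRCAP promoter peak, 3 with a GFP locus peak, and 6 GFP and 10 SRCAP locus peaks. Under it 100% of the GFP peaks (6 of 6) were shared, and the median distance to the nearest peak was 109 kb with the GFP antibody and 46.1 kb with the SRCAP antibody. These shifts follow from the removal of peaks, and no value over all protein-coding genes was set beside them under this filter. Whether the drop is particular to the regulators was not tested. The number of GFP locus peaks was 8 with a flank of 10 kb, 29 with 100 kb and 9 when a peak counted only where the regulator was the nearest protein-coding gene, and that of SRCAP peaks was 37 with 100 kb and 13 by the nearest gene. Counts of regulators rest on 1 library per antibody and on lists of unknown depth. No paired analysis was possible because the groups had 1 library each and no test was made.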
